A study of Rattus norvegicus with 8 samples.

Results

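The genes described here are 8 astrocyte genes that clear glutamate, potassium and water from the space around neurons and couple astrocytes to each other: Slc1a2, Slc1a3, Glul, Kcnj10, Atp1b2, Aqp4, Gja1 and Gjb6. The rule takes them by symbol and uses no measured value, but the members were chosen with earlier results of these data known. Each has 1 row among the 28546 gene entries of the count table. All 8 passed the low-count filter and stood among the 14445 tested genes, although Gjb6 had no more than 25 counts in any library.

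Astrocytes take up the glutamate that neurons release through the sodium-driven transporters GLAST (Slc1a3) and GLT-1 (Slc1a2), and glutamine synthetase (Glul) turns it into glutamine that is handed back to neurons. The inward rectifier channel Kir4.1 (Kcnj10) and the sodium pump with its glial beta subunit (Atp1b2) remove potassium, and the water channel aquaporin-4 (Aqp4) lets water follow at the endfeet on vessels. Gap junctions of connexin 43 (Gja1) and connexin 30 (Gjb6) join astrocytes into a network through which ions and small molecules spread.

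RNA-seq was measured in astrocytes from Sprague Dawley rat pups in 8 libraries of 3 groups, all exposed to 12-273 BM melanoma cells or to what these cells release. Melanoma cells of the control (n = 2) bore a scrambled hairpin and those of sh-APP (n = 3) a hairpin that targets the gene of the amyloid precursor protein. For anti-Abeta (n = 3) an amyloid beta antibody was combined with the scrambled-hairpin cells. The labels speak of a co-culture, of 24 h in medium from melanoma cells, and of astrocyte medium placed on melanoma cells, without settling which of these the sequenced astrocytes received. The study asks how amyloid beta of the melanoma cells bears on the astrocytes. All groups rest on 1 melanoma culture and on 1 hairpin against the gene (shAPPa), and no astrocytes without melanoma were analysed here. No label ties a library to a culture of its own, so p-values cover only the spread between these libraries, which may be technical.

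Total counts ran from 34250464 to 47831595 per library. Counts of libraries within a group differed beyond counting noise, with a chi-square per degree of freedom of 17.45 to 20.88 for 5 pairs and of 31.82 and 46.87 for the pairs of anti-Abeta replicate 2 with replicates 1 and 3. The second principal component (12.3% of the variance) set anti-Abeta replicate 1 apart, at -47.4 where the other libraries lay between -0.63 and 11. App, as counted in these libraries, had a log2 fold change of 0.09 ± 0.08 (SE) in sh-APP against control (edgeR adjusted p = 0.323). As the melanoma cells bore the hairpin, this value is no check of the knockdown. The summed level of 10 astrocyte identity markers was 9857 to 10135 CPM (counts scaled to a common library total, here with TMM factors) in control, 13797 to 15557 in sh-APP and 11121 to 11491 in anti-Abeta. Of these markers 8 were called higher and 2 lower in sh-APP against control, and 4 higher and 1 lower in anti-Abeta. Most of the rise of the sum in sh-APP came from Gfap (2911 ± 19.4 CPM in control and 6532 ± 893 in sh-APP), followed by Vim (3726 ± 309 and 4563 ± 16.7). In bulk RNA, fewer cells of a type and less RNA per cell cannot be told apart.

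Several sets of markers moved with the groups. The summed level of 16 proliferation genes was 862 to 937 CPM in control, 383 to 513 in sh-APP and 704 to 883 in anti-Abeta. The sum of the neuron list was 334 to 360, 153 to 165 and 227 to 292 CPM, with Slc17a6 at 0 in every library. Most of that sum came from Map2 (246 ± 25.9 CPM in control and 104 ± 5.90 in sh-APP) and Snap25 (68.3 ± 4.06 and 23.0 ± 0.457). In sh-APP 4 neuron markers were called lower, while Stmn2 (1.43 ± 0.262 and 8.23 ± 1.28 CPM), Tubb3 and Rbfox3 were called higher. The melanocyte and melanoma list had sums of 4335 to 4417, 2229 to 2432 and 3540 to 3832 CPM, nearly all from Gpnmb, while Mlana, Tyr, Tyrp1 and Dct had at most 29 counts in any library. The 13 mitochondrially encoded genes took 5.04 to 6.21% of counts in control, 1.97 to 2.50% in sh-APP and 3.01 to 3.62% in anti-Abeta. The part of these markers in the results below was not tested. Among markers of other cells, Cx3cr1 (microglia) and Cldn5 (endothelium) were at 0 in every library. The microglia sum was low throughout (10.7 to 21.9 CPM). The endothelium sum was low too, at 2.59 to 3.11 CPM in control, 6.14 to 8.37 in sh-APP and 3.30 to 5.67 in anti-Abeta. The oligodendrocyte lineage list summed to 2313 to 2392, 2738 to 2893 and 2690 to 3019 CPM in control, sh-APP and anti-Abeta, mostly from Olig1 and Olig2, and in sh-APP Olig1 was called higher and Ugt8 and Pdgfra lower. The fibroblast and pericyte list summed to 26.6 to 29.9, 39.2 to 41.5 and 32.3 to 38.8 CPM in control, sh-APP and anti-Abeta. The ependyma list summed to 15.3 to 19.0, 19.6 to 22.6 and 14.4 to 17.5 CPM. For endothelium, fibroblasts and ependyma the sh-APP sums thus lay above both control libraries. The part of this in the results below was not tested either.

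Against control, the sh-APP libraries had more Glul, Atp1b2 and Slc1a2 RNA and less Gja1 RNA. Of the 8 genes 3 were called higher and 1 lower (edgeR's quasi-likelihood test, adjusted p under 0.05), where 25.8% and 27.9% of all tested genes were called in these directions and 53.7% in either. The median log2 fold change of the 8 was 0.11, and over all tested genes 0.03. The anti-Abeta libraries had less Gja1, Aqp4 and Slc1a3 RNA than control. There, 3 of the 8 genes were called lower and 0 higher, against 16.6% and 12.7% of all tested genes and 29.2% in either direction. The count of 0 higher by edgeR was also 0 at an unadjusted p under 0.05, with DESeq2 and with limma-voom. It was 2 when libraries were scaled by their totals alone. The median of the 8 was -0.16, and over all tested genes 0.03. Between the arms, sh-APP had more Glul, Aqp4 and Atp1b2 and less Gja1 than anti-Abeta. These 3 higher and 1 lower compare with 10.1% and 16% of all tested genes, and 26.1% in either direction, and the median was 0.24 against -0.01. The 2 comparisons with control share the same 2 control libraries. Of all called genes 48% were higher in sh-APP and 43.4% in anti-Abeta against control, and with library totals alone, without composition factors, 62.6% and 71.7% were.

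**Figure D1:**
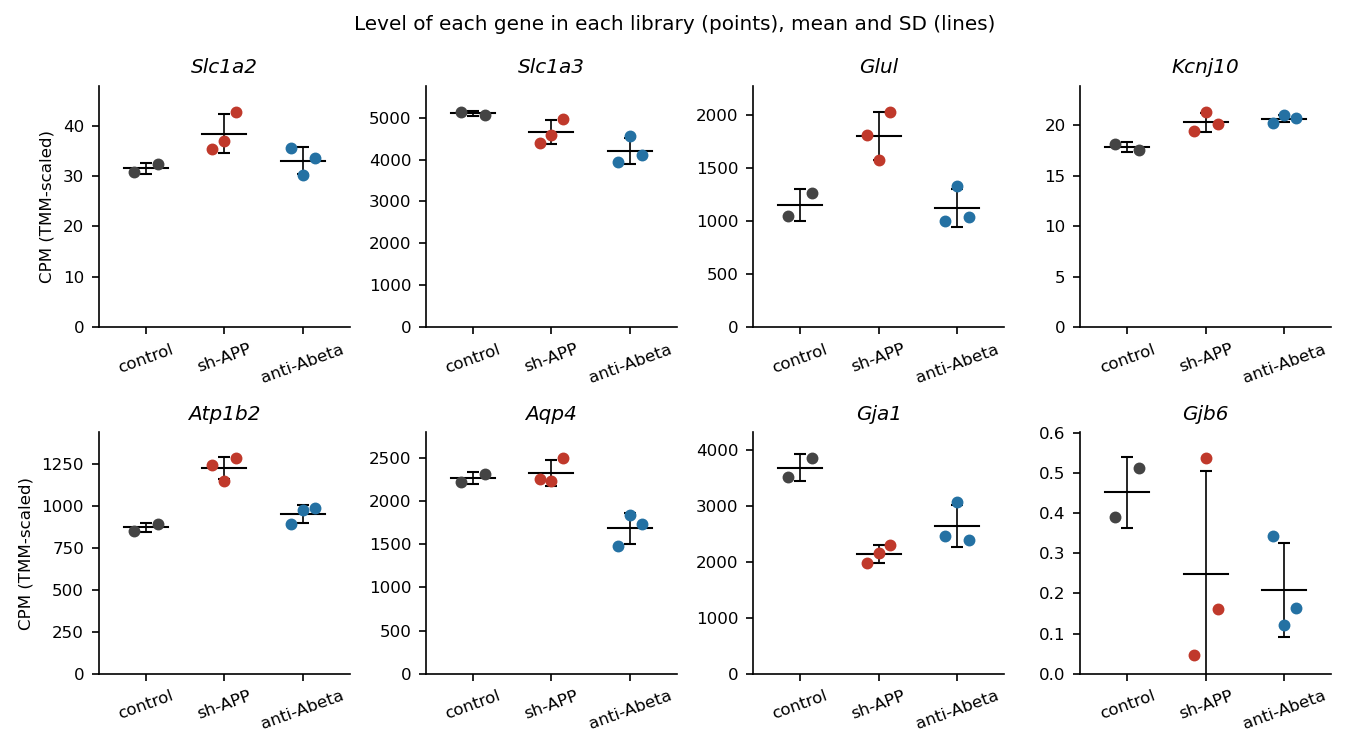
Level of each of the 8 genes in CPM after TMM scaling (vertical axis from 0, a scale of its own in each panel). Points are libraries, the horizontal line is the group mean and the error bar the SD (n = 2 control, 3 sh-APP, 3 anti-Abeta; the lower bar of Gjb6 in sh-APP passes below 0). Glul and Atp1b2 stand highest in all 3 sh-APP libraries, Gja1 stands highest in both control libraries, and Aqp4 stands lowest in all 3 anti-Abeta libraries.

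Slc1a3 encodes GLAST, the glutamate transporter that prevails in young and cultured astrocytes. Its level was 5138 and 5062 CPM in the 2 control libraries, 4403, 4588 and 4963 in those of sh-APP, and 3947, 4561 and 4106 in those of anti-Abeta (in the order of replicate numbers, here and below). All 6 libraries of both arms lay below both control libraries, and the arms overlapped each other. The group means were 5100 ± 53.5, 4651 ± 286 and 4205 ± 319 CPM (SD). Slc1a3 fell in anti-Abeta by 0.28 ± 0.08 (SE) on the log2 scale (edgeR adjusted p = 0.0254). The call was lost without control replicate 1 (adjusted p = 0.144), without control replicate 2 (0.0938), and when anti-Abeta replicate 1 (0.0862) or its replicate 3 (0.0805) was left out. It was also lost in a fit of only these 2 groups (0.0507) and with library totals alone as scaling, where the log2 fold change was -0.13. In sh-APP the log2 fold change was -0.13 ± 0.08 (adjusted p = 0.198), and it was 0.07 with library totals alone. The difference between the arms was 0.15 ± 0.07 (adjusted p = 0.173). It was called without anti-Abeta replicate 2 (0.23, adjusted p = 0.0441) and with library totals alone (0.20, adjusted p = 0.0483).

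Slc1a2 encodes GLT-1, which carries most glutamate uptake in the adult forebrain and is low in astrocytes cultured without neurons. The control libraries had 30.8 and 32.3 CPM, the sh-APP libraries 35.4, 36.9 and 42.7, and the anti-Abeta libraries 35.4, 30.2 and 33.6. The sh-APP libraries lay above both control libraries, and the anti-Abeta libraries spread around the control values. Slc1a2 rose from 31.5 ± 1.07 CPM in control to 38.3 ± 3.86 in sh-APP, a log2 fold change of 0.28 ± 0.11 with an adjusted p of 0.0468 (edgeR) just inside the threshold. It missed the threshold without control replicate 1 (adjusted p = 0.190), control replicate 2 (0.0868), sh-APP replicate 2 (0.0581) or its replicate 3 (0.175), and when anti-Abeta replicate 3 (0.0553) was left out. DESeq2 (0.0503), limma-voom (0.0547) and size factors of DESeq2's kind (0.0568) missed it too. With library totals alone the fold change was 0.49 (adjusted p = 0.00249). In anti-Abeta its level was 33.1 ± 2.68 CPM, a log2 fold change of 0.07 ± 0.11 (adjusted p = 0.682). Between the arms it differed by 0.21 ± 0.10 (adjusted p = 0.130).

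The balance of the 2 transporters within a library does not depend on how libraries are scaled to each other. The log2 ratio of Slc1a2 to Slc1a3 counts was -7.38 and -7.29 in control, -6.96, -6.96 and -6.86 in sh-APP, and -6.80, -7.24 and -6.93 in anti-Abeta. All 6 libraries of both arms lay above both control libraries, with anti-Abeta replicate 2 nearest to them. The mean ratio was higher than control by 0.41 in sh-APP (exact two-sided permutation p = 0.1) and by 0.35 in anti-Abeta (exact permutation p = 0.2), and 0.1 is the smallest p that 2 against 3 or 3 against 3 libraries allow. The arms differed by 0.07 (exact permutation p = 0.9), and by -0.059 without anti-Abeta replicate 2.

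Glul, the glutamine synthetase that marks astrocytes in the brain, was higher in sh-APP than in both other groups. Its level was 1046 and 1260 CPM in control, 1809, 1573 and 2030 in sh-APP, and 999.95, 1328 and 1039 in anti-Abeta. The sh-APP libraries were all above the other 5, while control and anti-Abeta overlapped. Glul rose from 1153 ± 151 CPM in control to 1804 ± 229 in sh-APP, a log2 fold change of 0.65 ± 0.14 (edgeR adjusted p = 0.00163), and its anti-Abeta level was 1122 ± 179 CPM (-0.04 ± 0.13, adjusted p = 0.860). Against anti-Abeta the sh-APP level was higher by 0.68 ± 0.12 (adjusted p = 0.00228). Both sh-APP calls held in all 18 alternatives, each library left out included. In the RefSeq annotation of a later rat assembly (GRCr8) Glul overlaps Rgsl1, Rgsl2h, Teddm1a and Teddm1b, and 2 pseudogenes bear its name, so part of its reads may be assigned uncertainly.

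Kcnj10 encodes Kir4.1, the channel through which astrocytes take up potassium. The control libraries had 18.2 and 17.5 CPM, the sh-APP libraries 19.5, 21.3 and 20.2, and the anti-Abeta libraries 20.3, 21.0 and 20.7. Every library of both arms lay above both control libraries, by a small margin, and the arms overlapped. The means were 17.9 ± 0.465, 20.3 ± 0.944 and 20.6 ± 0.364 CPM (SD). The log2 fold change was 0.19 ± 0.10 in sh-APP (edgeR adjusted p = 0.155) and 0.21 ± 0.10 in anti-Abeta (adjusted p = 0.153), so Kcnj10 did not pass the test. With library totals alone it passed in both arms (0.39, adjusted p = 0.00806, and 0.36, adjusted p = 0.0236), and with upper-quartile factors in sh-APP (0.27, adjusted p = 0.0460). The arms differed by -0.02 ± 0.09 (adjusted p = 0.885).

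Atp1b2 encodes the beta-2 subunit of the sodium pump, first described as an adhesion molecule on glia. It stood at 850 and 891 CPM in control, at 1240, 1149 and 1281 in sh-APP, and at 889, 976 and 987 in anti-Abeta. The sh-APP libraries were all above the other 5, and the lowest anti-Abeta library lay within the control range. Atp1b2 rose from 870 ± 28.7 CPM in control to 1223 ± 67.5 in sh-APP, a log2 fold change of 0.49 ± 0.08 (edgeR adjusted p = 0.000205). Its anti-Abeta level was 950 ± 53.9 CPM, a difference from control of 0.13 ± 0.08 (adjusted p = 0.239) that passed only with library totals alone among the alternatives (0.28, adjusted p = 0.0171). The arms differed by 0.36 ± 0.07 (adjusted p = 0.00307). Both sh-APP calls held in all 18 alternatives.

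Aqp4, the main water channel of the brain, was lower in anti-Abeta than in both other groups. Its level was 2215 and 2317 CPM in control, 2251, 2230 and 2495 in sh-APP, and 1481, 1833 and 1738 in anti-Abeta. The anti-Abeta libraries were all below the other 5, and sh-APP overlapped control. Aqp4 fell from 2266 ± 71.7 CPM in control to 1684 ± 182 in anti-Abeta, a log2 fold change of -0.43 ± 0.09 (edgeR adjusted p = 0.00689). The call was lost without control replicate 1 (adjusted p = 0.0629) and without control replicate 2 (0.0546). Without anti-Abeta replicate 2 the log2 fold change was -0.51 (adjusted p = 0.00163), and without replicate 1 it was -0.34 (0.0222). With library totals alone it was -0.28 (0.0260). In sh-APP its level was 2325 ± 147 CPM, a log2 fold change of 0.04 ± 0.09 (adjusted p = 0.763), which became 0.24 (adjusted p = 0.0336) with library totals alone. The direct difference between the arms was 0.47 ± 0.08 (adjusted p = 0.00249), and it held in all 18 alternatives.

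Gja1 encodes connexin 43, the chief gap junction protein of astrocytes, and was the only one of the 8 genes called lower in both arms. Its level was 3511 and 3853 CPM in control, 1979, 2162 and 2297 in sh-APP, and 2469, 3073 and 2386 in anti-Abeta. The 3 groups did not overlap: control was highest, anti-Abeta lay between, and sh-APP was lowest. Gja1 fell from 3682 ± 242 CPM in control to 2146 ± 160 in sh-APP, a log2 fold change of -0.78 ± 0.11 (edgeR adjusted p = 7.78e-05) that held in all 18 alternatives. In anti-Abeta it fell to 2643 ± 375 CPM, by 0.48 ± 0.11 on the log2 scale (adjusted p = 0.00817). That call was lost without control replicate 1 (adjusted p = 0.0580) and without control replicate 2 (0.0719). Without anti-Abeta replicate 2 the fold change was -0.62 (adjusted p = 0.000368), and without replicate 1 it was -0.43 (0.0312).

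Between the arms Gja1 was lower in sh-APP than in anti-Abeta, with a log2 difference of -0.30 ± 0.10 (edgeR adjusted p = 0.0393). This call was lost in 9 of the 18 alternatives. Without anti-Abeta replicate 2, the library of the arm with the highest Gja1, the difference was -0.16 (adjusted p = 0.185). It was also lost without control replicate 1 (0.0708), control replicate 2 (0.0711), sh-APP replicate 1 (0.157), sh-APP replicate 2 (0.0767) or sh-APP replicate 3 (0.0509).

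Gjb6, which encodes connexin 30 and appears late in astrocyte development, was close to absent. It had 14 and 19 counts in the control libraries, 2, 25 and 7 in sh-APP, and 12, 5 and 8 in anti-Abeta. The libraries overlapped in sh-APP, and all anti-Abeta libraries lay below both controls. The log2 fold changes of -0.85 ± 0.85 (edgeR adjusted p = 0.430) and -1.12 ± 0.87 (adjusted p = 0.361) carry errors as large as most of their size. The sh-APP value moved to -2.10 without sh-APP replicate 2 and to -0.37 without sh-APP replicate 1, and to -1.38 with limma-voom. The log2 fold changes seen for Gja1 (-0.78 in sh-APP and -0.48 in anti-Abeta) are smaller than these errors. The ratio of the 2 connexins is not given, as the counts of Gjb6 were few and scattered.

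**Figure D2:**
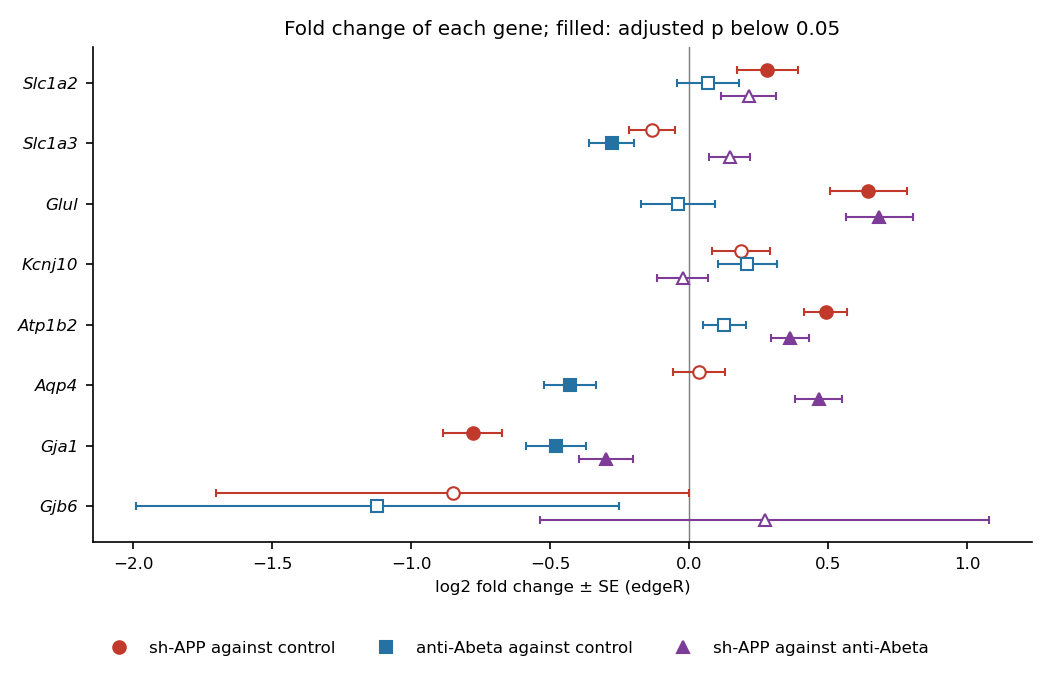
Log2 fold change of each of the 8 genes with its SE (horizontal axis) in the 3 comparisons, filled where the edgeR adjusted p is below 0.05. In sh-APP against control Glul, Atp1b2 and Slc1a2 lie to the right and Gja1 to the left of 0, and Aqp4 lies at 0.04 there and at -0.43 in anti-Abeta against control.

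**Figure D3:**
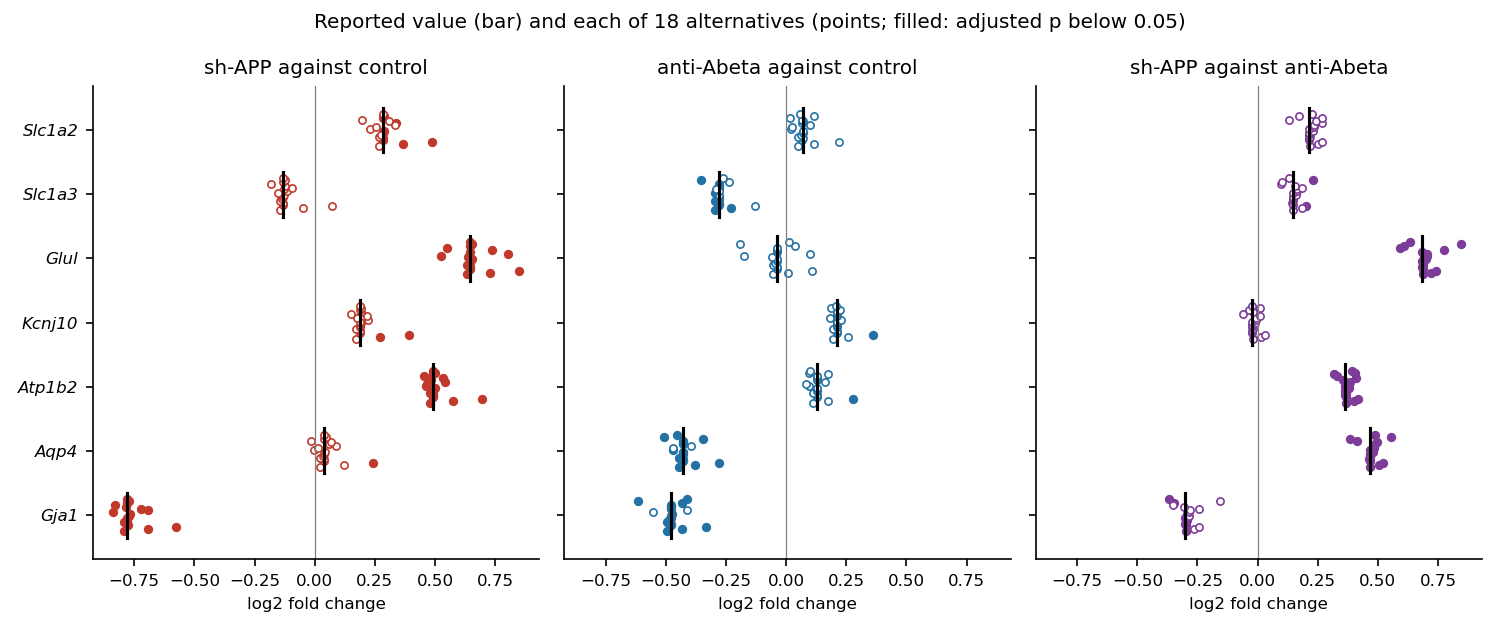
Log2 fold change (horizontal axis) of 7 of the genes in each comparison, as reported (bar) and under 18 other settings (points, filled where the adjusted p is below 0.05; Gjb6 is left out for its few counts). Glul and Atp1b2 stay filled in both comparisons of sh-APP, as do Gja1 in sh-APP against control and Aqp4 in sh-APP against anti-Abeta, while Slc1a2, Slc1a3 and the Gja1 difference between the arms lose their call in several settings.

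The libraries of sh-APP and control did not overlap for 6 of the 8 genes (4 above, 2 below), where 35.7% of all tested genes lay above, 35% below and 70.7% in either direction. Those of anti-Abeta and control did not overlap for 5 (1 above, 4 below), where these shares were 27.9%, 27% and 54.9%. Between the arms 4 genes did not overlap (3 above, 1 below), where they were 19.2%, 22.1% and 41.3%.

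Glul and Atp1b2, called higher in both comparisons of sh-APP, and Gja1, called lower in both, are shown by the 250 bases before each RefSeq start (build GRCr8, 5′ to 3′, capitals for motif matches). The choice was made after their values were seen, to set the start regions of genes that moved in opposite directions side by side, and Glul has 2 annotated starts.

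Gja1 (chr20:36302314-36302563, + strand): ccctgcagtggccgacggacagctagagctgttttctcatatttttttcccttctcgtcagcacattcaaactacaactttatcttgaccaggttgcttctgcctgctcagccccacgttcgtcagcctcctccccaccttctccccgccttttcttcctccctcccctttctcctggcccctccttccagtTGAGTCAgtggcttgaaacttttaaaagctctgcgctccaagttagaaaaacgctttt

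Atp1b2 (chr10:54823709-54823958, - strand): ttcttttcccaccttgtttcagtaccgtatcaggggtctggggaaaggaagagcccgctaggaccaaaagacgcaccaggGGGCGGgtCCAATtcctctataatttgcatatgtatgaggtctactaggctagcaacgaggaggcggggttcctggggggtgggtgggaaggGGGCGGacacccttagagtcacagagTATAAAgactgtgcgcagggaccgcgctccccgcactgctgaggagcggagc

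Glul, start 1 (chr13:68519250-68519499, + strand): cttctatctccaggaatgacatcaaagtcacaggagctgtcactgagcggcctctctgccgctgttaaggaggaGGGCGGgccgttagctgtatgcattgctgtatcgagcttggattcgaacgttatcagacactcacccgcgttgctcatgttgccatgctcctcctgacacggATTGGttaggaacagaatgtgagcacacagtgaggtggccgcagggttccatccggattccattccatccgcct

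Glul, start 2 (chr13:68575816-68576065, + strand): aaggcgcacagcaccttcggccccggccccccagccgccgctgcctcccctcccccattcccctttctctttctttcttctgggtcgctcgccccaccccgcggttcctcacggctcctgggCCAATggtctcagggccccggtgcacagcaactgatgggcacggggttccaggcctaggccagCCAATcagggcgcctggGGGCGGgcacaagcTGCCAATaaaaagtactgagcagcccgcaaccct

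These windows were searched on both strands for the TATA box, spelled TATAAA, the GC box, spelled GGGCGG, and the CCAAT box, spelled as its name. They were also searched for an AP-1 site, spelled TGAGTCA, and for the short form of a nuclear factor I (NFI) site, spelled TTGGCA. The NFI letters and the CCAAT box share bases where they meet on opposite strands, as at start 2 of Glul. The Gja1 window holds 1 match, the AP-1 site 58 bases before the start, and 4.05% of all 33469 RefSeq windows of the same length hold that motif. The Atp1b2 window holds a TATA box 52 bases before the start (12.9% of windows), a CCAAT box at 162 (34%) and GC boxes at 170 and 78 (30.5%). The window of start 2 of Glul holds 3 CCAAT boxes, 1 GC box and 1 short NFI site (12%), and that of start 1 holds 1 CCAAT box and 1 GC box. A match describes the letters and is no evidence of binding.

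Around the 8 genes, 69 genes in 7 lists act in the same processes, and 65 of them were tested. In sh-APP against control 22 were called higher and 17 lower, 60% in all where 53.7% of all tested genes were called, with a median log2 fold change of 0.12. With library totals alone the split was 29 higher and 15 lower. The counts per list below are to be read against the TMM-scaled fit, in which 25.8% of the 14445 genes went up and 27.9% down by call. Whether any single list departed from these shares was not tested.

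Of 14 glutamate and glutamine genes, 4 rose and 4 fell in sh-APP. Slc1a1, another glutamate transporter, whose gene overlaps Spata6l, fell from 58.6 ± 1.74 CPM in control to 32.4 ± 2.33 in sh-APP (log2 fold change -0.86 ± 0.09, edgeR). Slc38a2 (-0.65), a glutamine carrier, and Slc7a11 (-0.71), the cystine-glutamate exchanger, fell too. Slc1a4 (0.68), a neutral amino acid carrier of the same family as Slc1a2, rose with Slc1a5 (0.22), Slc38a3 (0.25) and Got2 (0.22), an aspartate aminotransferase of mitochondria. Slc7a11, Slc38a3 and Got2 were named after their values were seen. None of the 4 tested GABA, glycine and taurine transporters was called in sh-APP, 0 by edgeR, at an unadjusted p under 0.05, with DESeq2 and with limma-voom.

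Of 10 potassium genes 2 rose and 4 fell in sh-APP. Slc12a2, the sodium-potassium-chloride cotransporter that brings these ions in, fell from 267 ± 15.4 to 120 ± 15.6 CPM (log2 fold change -1.15 ± 0.15, edgeR). Kcnma1, a calcium-activated potassium channel (-0.93), and Kcnj16, the channel subunit that pairs with Kir4.1 (-0.80, named after its value was seen), fell too. The potassium-chloride cotransporter Slc12a4 (0.53) and the potassium leak channel Kcnk10 (0.42) rose.

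Of 9 other sodium pump genes 5 rose and 2 fell in sh-APP. The pump's beta subunits moved apart: Atp1b2 rose, as given above, Atp1b3 fell from 370 ± 32.7 to 192 ± 11.3 CPM (log2 fold change -0.95 ± 0.09, edgeR), and Atp1b1 fell (-0.32, named after its value was seen). Atp1b3 has a pseudogene that bears its name. Fxyd1, a small regulator of the pump also called phospholemman, rose from 32.2 ± 2.14 to 72.2 ± 3.98 CPM (1.16). Its relatives Fxyd6 (0.48), Fxyd7 (1.29) and Fxyd5 (1.44, named after its value was seen) rose as well.

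Of 14 tested genes of water channels, endfoot anchoring and volume control, 7 rose and 2 fell in sh-APP. Agrn, a matrix proteoglycan, rose by 0.63 (log2), and Mlc1 and Hepacam, partners at astrocyte junctions, by 0.62 and 0.50. Lrrc8a, a subunit of the volume-regulated anion channel, rose by 0.57, Aqp9, an aquaglyceroporin, by 1.17, and Dtna, a dystrobrevin of the complex that anchors aquaporin-4 at endfeet, by 0.33. Dystrophin (Dmd, -0.87) and utrophin (Utrn, -0.58) fell, and Dtna, Dmd and Utrn were named after their values were seen. Aqp4 itself did not pass the test in sh-APP.

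Of 10 tested connexin and pannexin genes with Tjp1, 3 rose and 3 fell in sh-APP. Tjp1, the scaffold protein ZO-1 that binds connexin 43, fell with Gja1, from 313 ± 10.3 to 173 ± 18.1 CPM (log2 fold change -0.85, edgeR). The connexins Gjc1 (-0.55) and Gjc3 (-1.35) fell, the connexin Gja5 rose (0.83), and Panx1 (0.34) and Panx2 (0.91), named after their values were seen, rose. Of 4 genes of bicarbonate and proton exchange, carbonic anhydrase 2 (Car2, -0.76) and the monocarboxylate carrier Slc16a1 (-0.85) fell. Of the 39 calls in the 7 lists, 24 held in all 18 alternatives. Without control replicate 1, 11 were lost (adjusted p of 0.0529 to 0.216), and without control replicate 2, 7 were lost (0.0628 to 0.164). Without sh-APP replicate 1, 5 were lost (0.0570 to 0.116), and without sh-APP replicate 2 or 3, 2 each (0.0535 to 0.105). Fxyd5, Fxyd7, Aqp9, Gjc3 and Panx2 had a mean under 5 CPM in control, where folds are less certain. Of the genes whose call was lost in any alternative, 15 in all, those named here are Slc1a5, Slc38a3, Got2, Slc7a11, Kcnk10, Fxyd5, Fxyd7, Atp1b1, Aqp9, Dtna, Utrn, Panx1, Panx2 and Slc16a1.

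**Figure D4:**
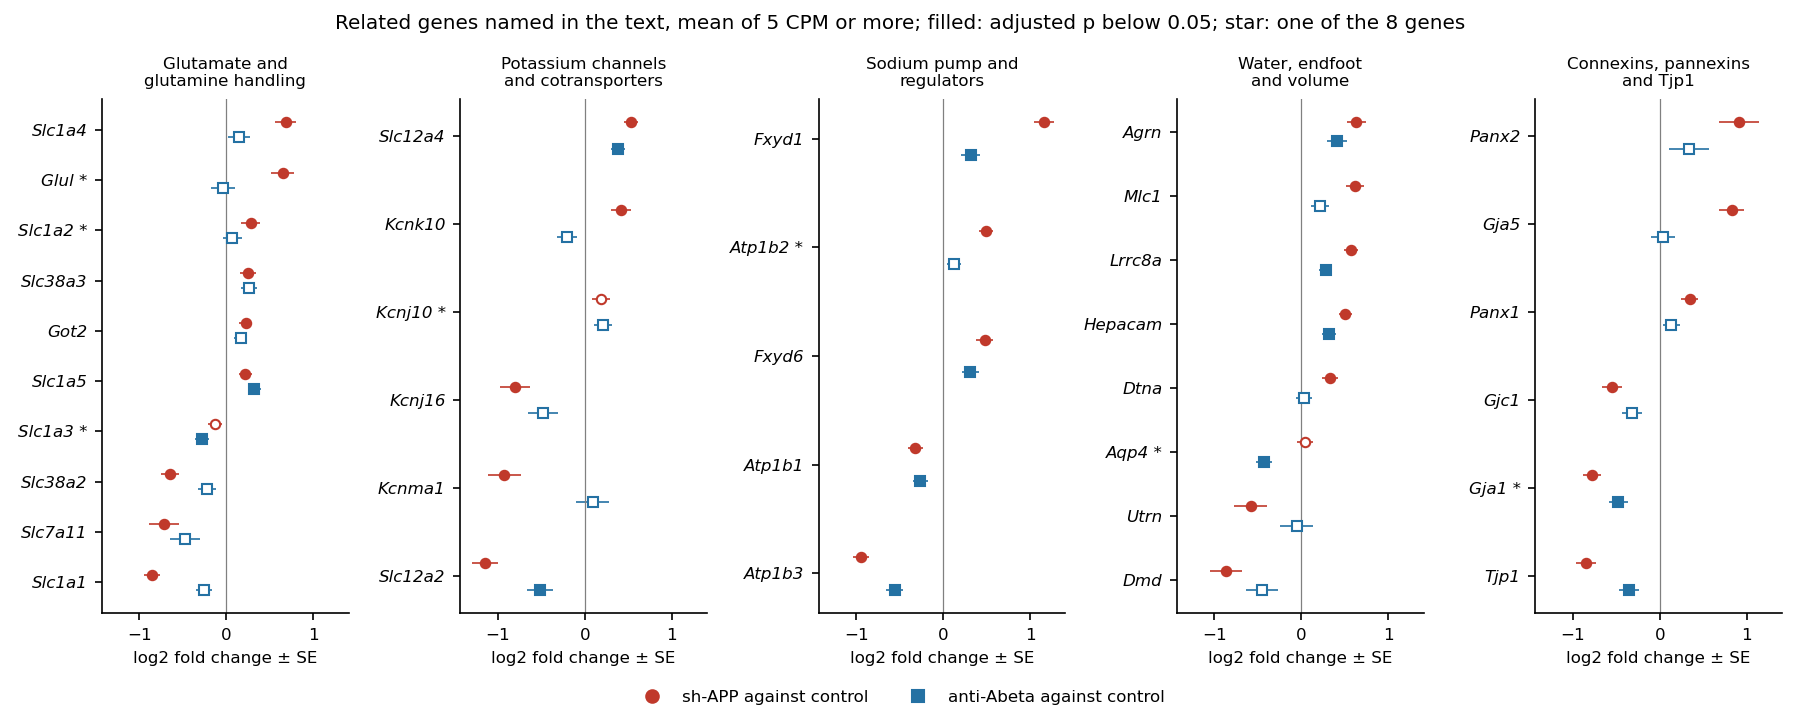
Log2 fold change with SE (horizontal axis) of the genes named in the text from the 5 largest related lists with a mean of 5 CPM or more, in sh-APP and anti-Abeta against control, filled where the edgeR adjusted p is below 0.05. Stars mark 7 of the 8 genes. Slc12a2 (-1.15) lies farthest left and Fxyd1 (1.16) farthest right in sh-APP.

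In anti-Abeta against control 10 of the 65 related genes were called higher and 6 lower, 24.6% in all where 29.2% of all tested genes were called, with a median of 0.03. With library totals alone these became 17 higher and 2 lower. Slc12a2 fell by 0.52 (log2), Atp1b3 by 0.56 and Tjp1 by 0.35. Car2 fell by 0.29 and Atp1b1 by 0.26. Agrn (0.41), Hepacam (0.32) and Lrrc8a (0.28) rose. Of 14 water and endfoot genes 0 were called lower by edgeR, with DESeq2 and with limma-voom, and 1 at an unadjusted p under 0.05. Of all tested genes 16.6% were called lower. The list does not hold Aqp4, which was called lower, as given above. Slc1a5 (0.32), the GABA transporter Slc6a11 (0.29), Slc12a4 (0.38), Fxyd1 (0.32) and Fxyd6 (0.31) rose as well. The call of Fxyd1 was close to the threshold (edgeR adjusted p = 0.0486). It was lost in 12 of the 18 alternatives, limma-voom (0.0701) among them, though not with DESeq2. That of Atp1b1 was lost in 8. None of the 16 calls held without control replicate 1 (adjusted p of 0.0543 to 0.365). Without control replicate 2, 8 were lost (0.0804 to 0.271), without anti-Abeta replicate 1, 8 (0.0506 to 0.120), and without anti-Abeta replicate 3, 9 (0.0566 to 0.158). Leaving out anti-Abeta replicate 2 or a sh-APP library ended 1 or 2 calls (0.0516 to 0.0905).

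In sh-APP against anti-Abeta 10 of the 65 were called higher and 13 lower, 35.4% where 26.1% of all tested genes were called. The balance turned to 15 higher and 10 lower with library totals alone and was 14 and 13 with upper-quartile factors and 13 and 13 with DESeq2. Slc1a1 (-0.60), Slc38a2 (-0.43), Slc12a2 (-0.63), Kcnma1 (-1.02), Atp1b3 (-0.39), Tjp1 (-0.50) and Car2 (-0.48) were lower in sh-APP. Fxyd1 (0.84), Slc1a4 (0.54), Mlc1 (0.40), Kcnk10 (0.63), Fxyd7 (1.61), Gja5 (0.79) and Aqp9 (1.39) were higher. These calls were among the 16 that held in all 18 alternatives. Each of the other 7 (Slc6a11, Aqp1, Dtna, Utrn, Lrrc8a, Gjc3 and Slc16a1) was lost in at least 1, among them 5 without sh-APP replicate 1 (adjusted p of 0.0507 to 0.152), 4 without sh-APP replicate 3 (0.0542 to 0.0875) and 3 without anti-Abeta replicate 2 (0.0833 to 0.156). Leaving out any of the other 5 libraries ended 1 or 2 calls (0.0547 to 0.152). Aqp1, Dtna and Utrn were named after their values were seen.

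The genes whose levels followed each of the 8 most closely over the 8 libraries were found among 10077 genes with a mean of 5 CPM or more. Gja1 was followed by Cldn12, a claudin (Pearson's r = 0.996 of log2 CPM), Tmem135 (0.994) and Cenpc (0.993). Glul was followed by Parm1 (0.992), Plekhd1 (0.989) and Tango2 (0.987), and Atp1b2 by Slc2a10 (0.992), a glucose transporter, Arhgap23 (0.991) and Rab11b (0.990). The other genes had looser neighbours. Slc1a3 was followed by Ptgs2 (0.975), the inducible cyclooxygenase, Armcx4 and Arhgef26, Slc1a2 by Trrap (0.965), Cramp1 and Ccdc6, Kcnj10 by Lgals1 (0.960), Cdk6 and Tmem143, and Aqp4 by Gde1 (0.947), Gosr2 and Plxnc1. For Gjb6, with its few counts, the closest gene was Rwdd2a (0.885). These correlations describe 8 libraries that share groups and scaling.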

How the data were processed

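Raw counts per gene symbol were deposited by the authors as 1 table of 8 libraries, without pooling of replicates. The submitters' processing notes name, among other tools, the aligner STAR 2.6.0a, the counter HTSeq 0.11.1 and the rat build rn6, with no settings. Strandedness is unknown here. All 28546 entries were kept, 26 of which had symbols turned into dates.

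All 8 libraries entered 1 fit in edgeR 4.0.16 (R 4.3.3) on group alone, leaving 5 residual degrees of freedom. The filterByExpr function (minimum count 10, minimum total 15) chose the genes tested, and library totals were scaled by TMM. Each contrast was tested with the robust quasi-likelihood test, with Benjamini-Hochberg adjustment over all 14445 tested genes and a threshold of 0.05. The SE is the size of the log2 fold change over the root of the F statistic. Alternatives were DESeq2 1.42.0, limma-voom (limma 3.58.1), other scalings and filters, a non-robust spread, fits of 2 groups, a replicate block, and each library left out. The test was checked on simulated data.

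The members and lists were chosen with earlier results of these data known. The 8 genes are always named, and per related list and contrast up to 3 called genes with the smallest p. For likeness, the 3 genes with the highest r (log2 CPM, prior count 2) were taken, from genes with a mean of at least 5 CPM. Promoter windows and gene overlaps come from RefSeq tables of GRCr8, from which all 8 members were matched. Besides Slc1a1, the related genes Slc12a4, Kcnk10, Kcnma1, Lrrc8a, Hepacam, Mlc1, Tjp1 and Gjc3 overlap other annotated entries there. Overlaps of genes named after their values were seen were not looked up. Aqp4's window is not shown, and some related genes that count in the lists are not reported here. Gjb6 had few counts in every library. Slc1a2 (2303 counts over the control libraries) and Kcnj10 (1303) also had far fewer than the other members. For Kcnj10, and for Slc1a2 in control, counting error may be as large as the spread between libraries. The SD of Slc1a2 was 3.40% of its mean in control, 10.1% in sh-APP and 8.11% in anti-Abeta. Whether replicate numbers pair libraries is not settled. Deviations of same-numbered libraries from their group means correlated by -0.0106 to 0.105. The deviations of the 2 control libraries mirror each other by construction, so the values with control cannot decide it.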

Additional observations from a re-analysis of the deposited data

How the results depend on the processing

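Of the results for the 8 genes and the 65 related genes under the 18 alternatives, 0 that were called turned direction. With library totals alone, 5 of the 8 genes were called higher in sh-APP and 2 in anti-Abeta against control, since this scaling moves the median log2 fold change of all genes to 0.23 and 0.18 (from 0.03 in both). The share of all calls that were higher went from 48% to 62.6% in sh-APP and from 43.4% to 71.7% in anti-Abeta against control, and from 38.5% to 49.5% between the arms. With upper-quartile factors the anti-Abeta share was 53.9%. In anti-Abeta against control the calls over the whole table were 1832 higher and 2391 lower, but 54 and 385 without control replicate 1, and 868 and 1563 without control replicate 2. The related genes called there (10 higher, 6 lower) numbered 0 and 0 without control replicate 1, and 10 and 11 with DESeq2. In sh-APP against anti-Abeta 0 of the 8 genes were called lower with upper-quartile factors, 0 with library totals alone and 0 in a fit of only the 2 groups compared, where the call of Gja1 was lost. Leaving out each library in turn gave 2 to 3 of the 8 genes higher and 1 to 1 lower in sh-APP, 0 to 0 higher and 0 to 3 lower in anti-Abeta, and 3 to 4 higher and 0 to 1 lower between the arms. The log2 ratio of Slc1a2 to Slc1a3 between the arms (0.07) ranged from -0.059 (without anti-Abeta replicate 2) to 0.16, from 0.37 to 0.46 for sh-APP against control and from 0.25 to 0.47 for anti-Abeta against control. With the replicate number as a block, which the data do not show to pair the libraries, 2 of the 8 genes were called higher and 1 lower in sh-APP, 0 and 3 in anti-Abeta, and 3 and 1 between the arms, and among the 8 genes the call of Slc1a2 was the one lost (adjusted p = 0.120). Of the sh-APP and anti-Abeta libraries, replicates 1 and 2 correlated best with their own number and replicate 3 did not. The cause of these shifts was not tested beyond the construction of each setting. Few and scattered counts limit the reading of Gjb6 most among the 8, and 2 control libraries limit every comparison with control.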
